A study of Mus musculus with 3 samples.

Results

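Chemokines and cytokines are the secreted or membrane-tethered proteins by which cells call in and instruct other cells, and 65 genes that encode such ligands were examined after glucose oxidase treatment of adipocytes of the 3T3-L1 line. The genes were chosen by their names: the CC and CXC chemokines, the CX3C chemokine gene Cx3cl1, the interleukins numbered with or without a letter from a to f, and Tnf, Lif, Csf1, Csf2 and Csf3. Members had to have a probe set (a group of probes on the array that reads a transcript) assigned to that gene alone, which left 65 of the 18194 genes measured and 94 of 34958 such probe sets. They comprised 18 CC chemokines, 13 CXC chemokines, Cx3cl1, 28 interleukins and the 5 others. A further 12 genes that the naming covers, such as Ccl19, Ccl21a, Il19 and Il27, had no such probe set and were not analysed here.

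3T3-L1 is a mouse fibroblast line that can be differentiated into fat cells in culture, and glucose oxidase is an enzyme that generates hydrogen peroxide from glucose, so that the cells meet a steady supply of an oxidant. RNA came from 3 samples treated in this way for 2 h, a time taken from the published account since the labels give none, and was measured on the mouse4302 Affymetrix array. The labels call the samples insulin resistant and give no other agent, dose or genotype, and 1 of them names preadipocytes where the growth protocol describes differentiation into adipocytes. No source used here says whether the 3 samples were separate cultures, so their spread may be technical only. Arrays of control cells are not analysed here. The values are therefore levels after treatment, with no fold change and no test of the treatment.

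Chemokines are small proteins that attract leukocytes along a gradient, and the position of their first cysteines gives the CC, CXC and CX3C families. They signal through G protein-coupled receptors, whereas many interleukins, Lif, Csf2 and Csf3 signal through receptors that use JAK kinases and STAT factors, and the receptor of Csf1 is itself a tyrosine kinase. In fat, chemokines such as CCL2 are known for drawing monocytes into the tissue, and the genes of many of these ligands are targets of the transcription factor NF-kappaB. Fat cells, their precursors and immune cells can all produce them.

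The labelled cell type was checked against its markers, and all 10 adipocyte markers measured, among them Adipoq, Fabp4 and Retn, and all 7 fibroblast and preadipocyte markers were above background. A gene was called above background when a probe set of it exceeded, in all 3 arrays, a log2 intensity of 7.58. This level is the 95th percentile of the 84 probe sets of taste, vomeronasal and olfactory receptor genes. Those receptor genes were assumed to be silent in fat cells, which was not checked and may not hold for each of them. Of those 84 probe sets, 4 were themselves above it and the highest was at 8.45, so a gene just over the level may have no transcript. Median intensities of the 3 arrays were 126.9 to 127.6, and Pearson’s r between arrays was 0.997 to 0.998 across probe sets above background, where probe sets are not independent replicates. Of 11 macrophage markers, 4 were above background, as were 4 of 6 lymphocyte, 1 of 6 endothelial and 2 of 6 mast cell and neutrophil markers. The share among all genes measured was 54.4%. Of the lymphocyte markers, Zap70 at 9.71 passed by 1 of 3 probe sets, Cd4 by 1 of 2 and Cd8a by 1 of 5, and Cd3e was at 8.27. Cd3d at 6.65 and Cd3g at 4.91 were not above background. Fewer cells that express a gene and less RNA per cell cannot be told apart in such samples.

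Most of the ligand genes were not above background, and those that were belonged mainly to the chemokines. Of the 65 genes, 20 were above background (30.8%), against 54.4% of all genes measured. Genes with several probe sets have more chances to pass, and among genes with only 1 probe set the count was 10 of 45 ligand genes (22.2%), against 39.2% of all such genes. By class, 8 of 18 CC chemokines (44.4%), 7 of 13 CXC chemokines (53.8%) and Cx3cl1 were above background. So were 2 of 28 interleukins (7.1%) and 2 of the 5 other ligands (40%). The shares of CC and CXC chemokines were thus not above the 54.4% of all genes, and the interleukins had the lowest share. With the highest background probe set as the limit, 12 ligand genes were above it, against 42% of all genes, and these were Ccl2, Ccl5, Ccl6, Ccl7, Ccl9, Cxcl1, Cxcl5, Cxcl10, Cxcl12, Cx3cl1, Il6 and Csf1. The other 8, Ccl8, Ccl24, Ccl25, Cxcl13, Cxcl16, Cxcl17, Il17b and Lif, were not above this limit in every array. Where every probe set of a gene had to pass, 15 ligand genes did, against 31.4% of all genes.

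**Figure D1:**
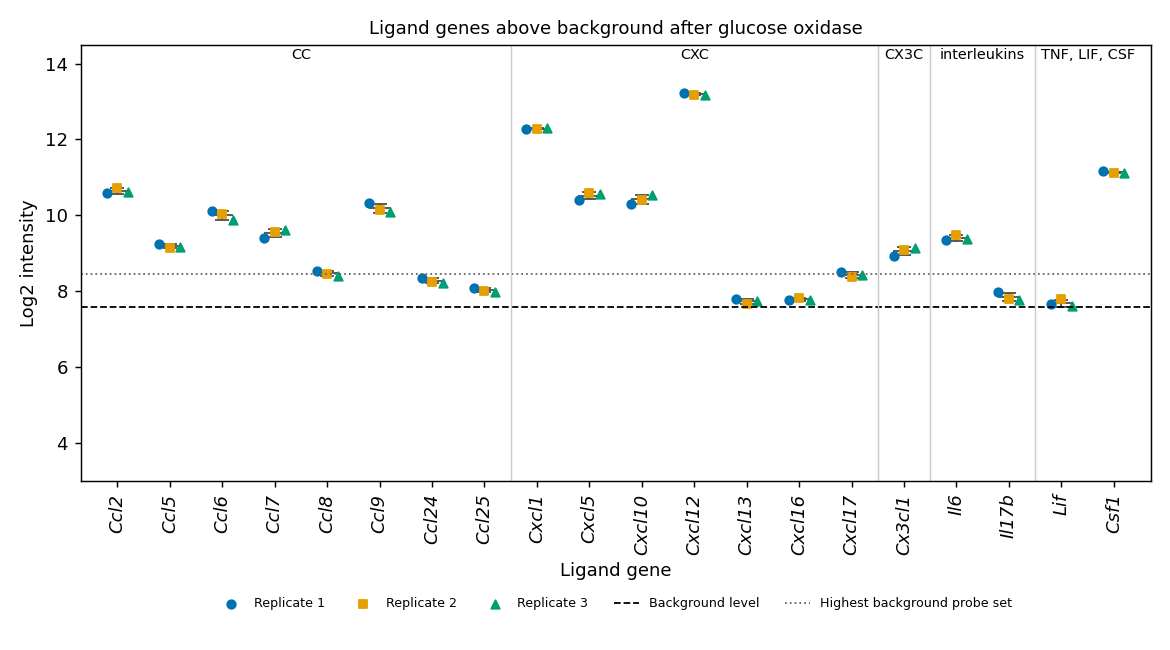
Log2 intensity (y axis) of the 20 ligand genes above background (x axis, by class), with a symbol for each replicate and bars for mean and SD (n = 3). The dashed line is the background level of 7.58 and the dotted line the highest background probe set at 8.45. The 3 symbols of a gene lie close together, and because probe sets differ in their response, 1 gene’s height says nothing against another’s.

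Among the CC chemokines, the monocyte attractants Ccl2 and Ccl7, which share the receptor CCR2, were above background. Ccl2 was at log2 intensities of 10.58, 10.73 and 10.61 in replicates 1, 2 and 3, and Ccl7 at 9.41, 9.56 and 9.62. Both were lowest in replicate 1, and all 3 arrays were well clear of the background level. Ccl8, a related monocyte attractant, was at 8.54, 8.46 and 8.41, which straddles the highest background probe set. Ccl5, which attracts T cells and monocytes, was at 9.25, 9.15 and 9.16.

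Ccl6 and Ccl9, rodent chemokines that act on the receptor CCR1, were also above background. Ccl6 was at 10.11, 10.03 and 9.88 and Ccl9 at 10.31, 10.15 and 10.09 in replicates 1, 2 and 3. For each gene the second probe set was above background too, at a mean of 8.28 for Ccl6 and 8.18 for Ccl9, and all 4 probe sets were highest in replicate 1 and lowest in replicate 3. Ccl24, an eosinophil attractant, was at 8.35, 8.25 and 8.22, and Ccl25, known from the thymus and small intestine, was at 8.09, 8.01 and 7.99. The 10 CC chemokines not above background were Ccl1, Ccl3, Ccl4, Ccl11, Ccl12, Ccl17, Ccl20, Ccl22, Ccl27a and Ccl28, at means from 5.19 for Ccl12 to 7.58 for Ccl4. Ccl4 stood at the limit, with 7.53, 7.55 and 7.66, so that 1 array was above the background level and the others were not. Ccl28, an epithelial chemokine, was below it in each array, with 7.44, 7.48 and 7.36.

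Among the CXC chemokines, the neutrophil attractants Cxcl1 and Cxcl5 were above background while the related Cxcl2, Cxcl3 and Cxcl15 were not. Cxcl1 was at log2 intensities of 12.27, 12.28 and 12.29, a spread of 0.013 (SD, n = 3), which was the narrowest among the 20 genes. Its 3 probe sets were all above background, the others at means of 11.57 and 11.37. Cxcl5 was at 10.41, 10.58 and 10.55. Cxcl2, read by 1 probe set, was at 4.86, 5.67 and 5.37, below background in every array. Its SD of 0.41 (n = 3) was the largest of all 8295 genes not above background, and replicate 1 was its lowest array. At a signal so far below background, this spread cannot be read as a difference in Cxcl2 transcript. Cxcl3 was at a mean of 3.32 and Cxcl15 at 5.66.

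The promoters of Cxcl1, Cxcl2 and Cxcl3 are shown because these genes lie in 1 cluster and the same NF-kappaB motif was found in each, while only Cxcl1 was above background. Each line gives the 120 bases before the annotated start, 5′ to 3′ on the gene’s strand, from the RefSeq promoters of GRCm38.p6. The windows are chr5:90891125-90891244, chr5:90903779-90903898 and chr5:90785981-90786100, all on the plus strand. Capitals mark the bases that match the NF-kappaB consensus on either strand.
Cxcl1: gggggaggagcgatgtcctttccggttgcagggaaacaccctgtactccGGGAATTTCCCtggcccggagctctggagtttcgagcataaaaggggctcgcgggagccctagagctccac
Cxcl2: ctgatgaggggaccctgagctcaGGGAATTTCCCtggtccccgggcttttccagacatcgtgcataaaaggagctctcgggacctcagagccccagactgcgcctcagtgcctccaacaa
Cxcl3: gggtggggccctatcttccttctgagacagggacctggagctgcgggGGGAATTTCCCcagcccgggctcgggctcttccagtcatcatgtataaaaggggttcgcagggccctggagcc
The matched letters were the same in the 3 genes, GGGAATTTCC, beginning 71 bases before the start in Cxcl1, 97 in Cxcl2 and 73 in Cxcl3, and in each a match to the other strand overlapped it by all but 1 base.

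Cxcl12, which retains haematopoietic cells through the receptor CXCR4, was at 13.23, 13.17 and 13.18. Of its 3 probe sets 2 were above background, the other at a mean of 6.26. Cxcl10, an interferon-inducible attractant of T cells, was at 10.31, 10.40 and 10.55, so replicate 3 was 1.18-fold higher than replicate 1 on the linear scale. Its neighbours Cxcl9 and Cxcl11, which act on the same receptor, CXCR3, were not above background. Cxcl9 was at 7.55, 7.82 and 7.60, with replicate 1 just under the level, and Cxcl11, annotated as a transcribed pseudogene in the RefSeq genes of this assembly, was at a mean of 6.12.

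Cxcl13, a B cell attractant, was at 7.79, 7.67 and 7.74 and Cxcl16, which is made as a membrane protein, at 7.76, 7.83 and 7.76. Both lay within 0.5 of the background level, and the second probe set of each was below it. Cxcl17, known from mucosal tissue, was at 8.51, 8.37 and 8.42. Cxcl14 was not above background, at a mean of 6.65. Cx3cl1, whose product fractalkine is tethered to the membrane and binds CX3CR1, was at 8.93, 9.08 and 9.14, and 2 of its 4 probe sets were above background.

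**Figure D2:**
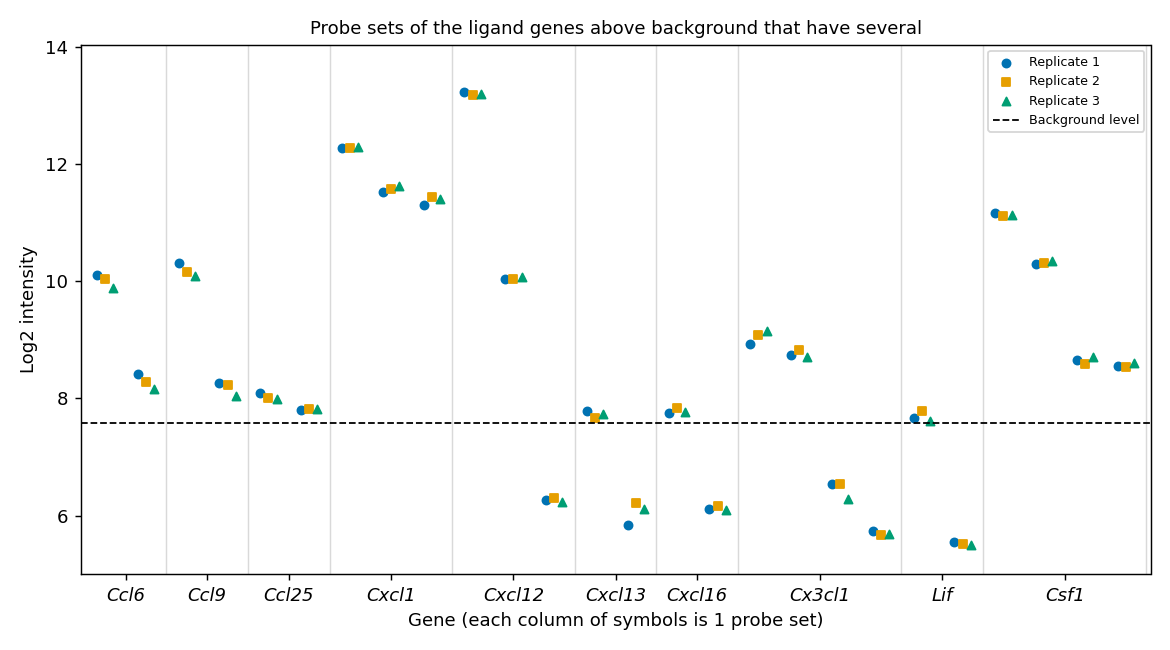
Log2 intensity (y axis) of each probe set (columns of symbols) for the 10 ligand genes above background with several probe sets (x axis), with 1 symbol per replicate and the background level of 7.58 as a dashed line. All probe sets were above the line in 5 genes, Ccl6, Ccl9, Ccl25, Cxcl1 and Csf1, and at least 1 was below it in the other 5.

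Interleukins were mostly not above background, and Il6 was the exception with a clear margin. Il6, a cytokine that adipocytes are known to release and that signals through gp130, was at log2 intensities of 9.34, 9.49 and 9.37. Il17b was at 7.97, 7.80 and 7.76, within 0.5 of the background level. The genes of the interleukin-1 pair, whose products cause fever and inflammation, were not above background, as Il1a was at 5.55, 5.59 and 5.42 and Il1b at 6.38, 6.36 and 6.24. Il10, an anti-inflammatory cytokine, was at 5.64, 5.43 and 5.36. None of the 3 arrays was above background for any of these 3 genes.

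Of the other 23 interleukins, Il16, Il17a and Il20 lay within 0.5 of the background level. Il17a, a T cell cytokine, was at 7.71, 7.63 and 7.56, so that only replicate 3 was under the level. Il20 was at 7.52, 7.51 and 7.26, and the highest of the 4 probe sets of Il16 was at 7.30, 7.30 and 7.09. The remaining genes were Il2, Il3, Il4, Il5, Il7, Il9, Il11, Il12a, Il12b, Il13, Il15, Il17d, Il18, Il21, Il23a, Il24, Il25, Il31, Il33 and Il34, at means from 3.48 for Il31 to 7.01 for Il18.

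Csf1, the growth factor on which macrophages depend, was at 11.16, 11.11 and 11.12, and all 4 of its probe sets were above background, the lowest at a mean of 8.56. Lif, a gp130 cytokine, was at 7.66, 7.79 and 7.61, barely over the level, and its second probe set was at a mean of 5.52. Tnf, the inflammatory cytokine that is used to make adipocytes insulin resistant, was at 7.08, 7.01 and 6.85, below background in every array. Csf2, the granulocyte and macrophage factor, was at 6.80, 6.85 and 6.75. Csf3, the granulocyte factor, was at 7.69, 7.67 and 7.51, with replicate 3 under the level.

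**Figure D3:**
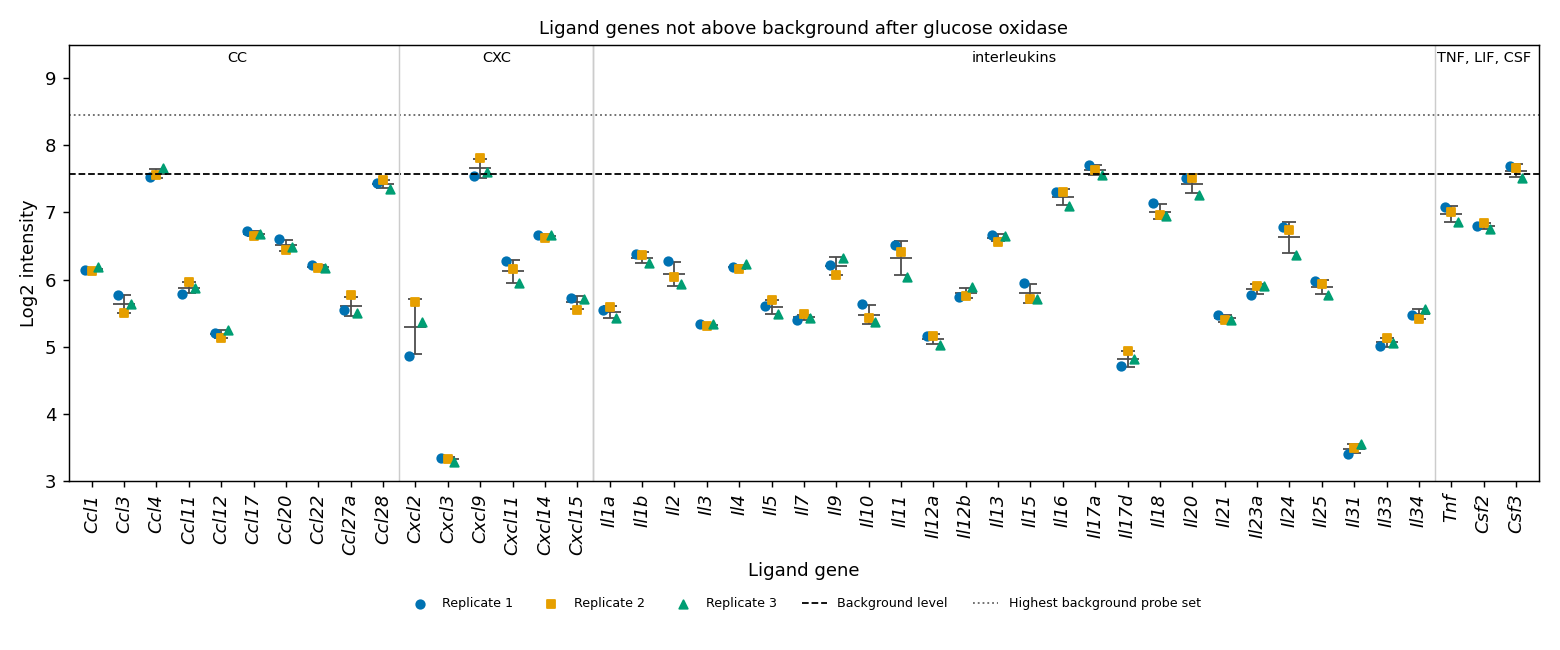
Log2 intensity (y axis) of the 45 ligand genes not above background (x axis, by class), with a symbol for each replicate, bars for mean and SD (n = 3), the background level of 7.58 as a dashed line and the highest background probe set at 8.45 as a dotted line. Ccl4, Cxcl9, Il17a and Csf3 straddle the dashed line, and Cxcl2, far below it, has the widest spread.

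Many chemokine genes sit side by side in the genome, and in each of the 5 chemokine runs genes above background lay beside genes that were not. Of all genes measured, 54.4% were above background, and whether such mixed runs were commoner here than elsewhere in the genome was not tested. In a run of 6 measured genes on chromosome 11, Ccl2, Ccl7 and Ccl8 were above background, and Ccl11, Ccl12 and Ccl1 were not, with Ccl11 and Ccl12 lying between Ccl7 and Ccl8. In a run of 5 further along the same chromosome, Ccl5, Ccl9 and Ccl6 were above background and Ccl3 and Ccl4 were not. On chromosome 5, Cxcl5 and Cxcl1 were above background, with Cxcl3 and Cxcl15 between them and Cxcl2 beyond them not. Also on chromosome 5, only Cxcl10 was above background among Cxcl9, Cxcl10 and Cxcl11, and on chromosome 8, only Cx3cl1 between Ccl22 and Ccl17. The runs of interleukin genes, Il24, Il20 and Il10 on chromosome 1 and Il4, Il13 and Il5 on chromosome 11, held no gene above background. Gene order was taken from the RefSeq genes of GRCm38.p6.

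**Figure D4:**
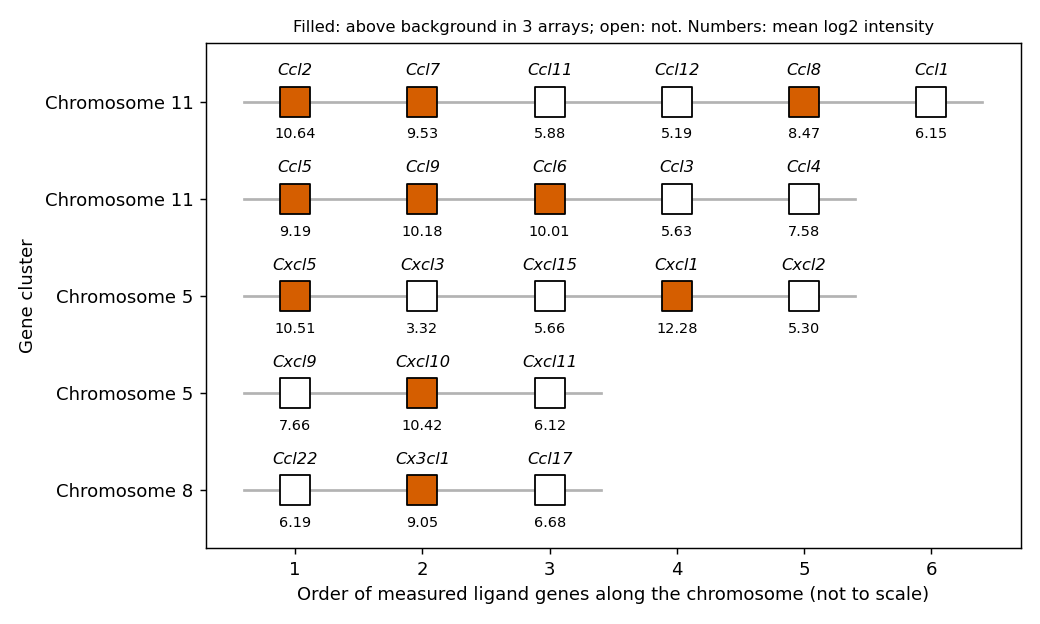
Order of the measured ligand genes (x axis, not to scale) in each of 5 chemokine clusters (rows, named by chromosome). Filled squares are genes above background in all 3 arrays and open squares genes that are not, with the mean log2 intensity under each. Every cluster holds both kinds, and 54.4% of all genes measured were above background.

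Motifs in the promoters were counted as a description of the ligand genes. The RefSeq table, of 250 bases before to 50 after the start, held promoters for 46 of the 65 genes, of which 12 were above background and 34 were not. Among those above background, Ccl2, Ccl5, Ccl7, Ccl24, Cxcl5, Cxcl16, Cxcl17 and Il17b had no entry. A match to the NF-kappaB consensus, on either strand, was found in 6 of the 12 genes above background and 6 of the 34 others, against 9.55% of all genes in the table. The 6 above background were Ccl9, Csf1, Cxcl1, Cxcl10, Il6 and Lif, and the others were Ccl1, Ccl20, Ccl27a, Cxcl2, Cxcl3 and Il16. The AP-1 site TGANTCA was found in 4 of the 12 and 8 of the 34, against 8.97% of all genes, and the antioxidant response element TGACNNNGC in 3 of the 12 and 3 of the 34, against 14.0% of all genes. These counts were not tested, and a match is a run of letters and not a bound site.

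The promoters of Cxcl10 and Il6 are shown because both genes were clear of background and hold a match close to the start. The windows are the 120 bases before the start, chr5:92348890-92349009 on the minus strand and chr5:30012994-30013113 on the plus strand of GRCm38.p6, written on the gene’s strand. Capitals mark matches to any of the 3 motifs, which in Cxcl10 are overlapping NF-kappaB matches and then an AP-1 site overlapped by an antioxidant response element on the other strand, and in Il6 an NF-kappaB match.
Cxcl10: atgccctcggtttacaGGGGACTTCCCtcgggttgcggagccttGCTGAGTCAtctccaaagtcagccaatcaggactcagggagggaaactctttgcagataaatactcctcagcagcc
Il6: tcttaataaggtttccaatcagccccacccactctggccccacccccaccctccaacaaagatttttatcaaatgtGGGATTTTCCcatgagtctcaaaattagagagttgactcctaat
In Cxcl10 another NF-kappaB match began 159 bases before the start, and in Il6 an AP-1 site began 249 bases before it, both outside the stretches shown.

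Counts for the receptors of these ligands stand beside the 54.4% of all genes measured that were above background. Of 21 chemokine receptor genes measured, 3 were above background: Ccr2, the receptor of CCL2 and CCL7, with a level of 9.14 ± 0.04 on the log2 scale (SD, n = 3), and the scavenging receptors Ackr1 at 8.25 ± 0.07 and Ackr4 at 7.83 ± 0.04 (SD, n = 3). Only 1 of the 4 probe sets of Ccr2 was above background, and Ackr1 and Ackr4 were under the highest background probe set at 8.45. The receptors of other ligands above background were not: Cxcr2 was at a mean of 6.33, Cxcr3 at 7.12, Cxcr4 at 4.85, Cx3cr1 at 6.03 and Ccr1 at 5.71, genes named here as the partners of those ligands. Of 21 cytokine receptor genes measured, 14 were above background (66.7%), not far from the 54.4% of all genes. Most of the 21 had several probe sets, and such genes have more chances to pass. The TNF receptor gene Tnfrsf1a was at 12.27 ± 0.01, and the gp130 gene Il6st at 10.14 ± 0.05 (SD, n = 3), with Il6ra at 8.42 ± 0.04 and Lifr at 10.21 ± 0.07. The mean of Il6ra was under the highest background probe set, and Lifr passed by 1 of 3 probe sets. Csf1r, the receptor of CSF1, was at 8.70 ± 0.10 (SD, n = 3). Receptors of leukocyte growth factors, Csf2ra, Csf2rb and Csf3r, were not above background, nor were Il7r, Il10ra and Il18r1.

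Genes of the pathways that act up- and downstream were mostly above background, where 54.4% of all genes measured were. Of 18 measured genes of the NF-kappaB pathway, 17 were, among them Rela at 11.78 ± 0.03 and the inhibitor gene Nfkbia at 13.23 ± 0.01 (SD, n = 3), and Rel was the exception at 6.62. Of 14 JAK, STAT and SOCS genes, 13 were above background, with Stat4, known from lymphocytes, the exception at 6.25. The feedback inhibitor Socs3 was at 9.83 ± 0.15 (SD, n = 3). Of 9 genes for proteins that bind AU-rich sequences in cytokine mRNAs or otherwise degrade them, 8 were above background, among them Zfp36 at 10.97 ± 0.08 and Zfp36l1 at 12.25 ± 0.05 (SD, n = 3). Zc3h12a, which encodes an RNA-degrading enzyme, was below the level at 7.44.

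Of 7 genes for release and processing of the ligands, 5 were above background (71.4%), against 54.4% of all genes measured. The sheddase genes Adam10 and Adam17 were at 10.50 ± 0.08 and 9.61 ± 0.08 (SD, n = 3), whereas Casp1, whose product matures IL-1β and IL-18, was at 5.06 and its adaptor gene Pycard at 6.56. Also above background were Casp8 at 10.21, Gsdmd at 8.97 and Nlrp3 at 8.22, the last under the highest background probe set at 8.45. None of the 6 genes for antagonists and decoys, such as Il1rn at 7.24 and Il1r2 at 6.01, was above background. Among 19 related ligands and acute-phase genes outside the naming rule, 7 were above background (36.8%), against the same 54.4%. They were the ligand genes Mif at 12.57, Kitl at 10.19, Ctf1 at 9.47, Tgfb1 at 9.40 and Clcf1 at 8.91, and the acute-phase genes Hp, which encodes haptoglobin, at 12.82 and Saa3 at 8.93. The platelet chemokine genes Pf4 and Ppbp were not, at 5.89 and 4.72.

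**Figure D5:**
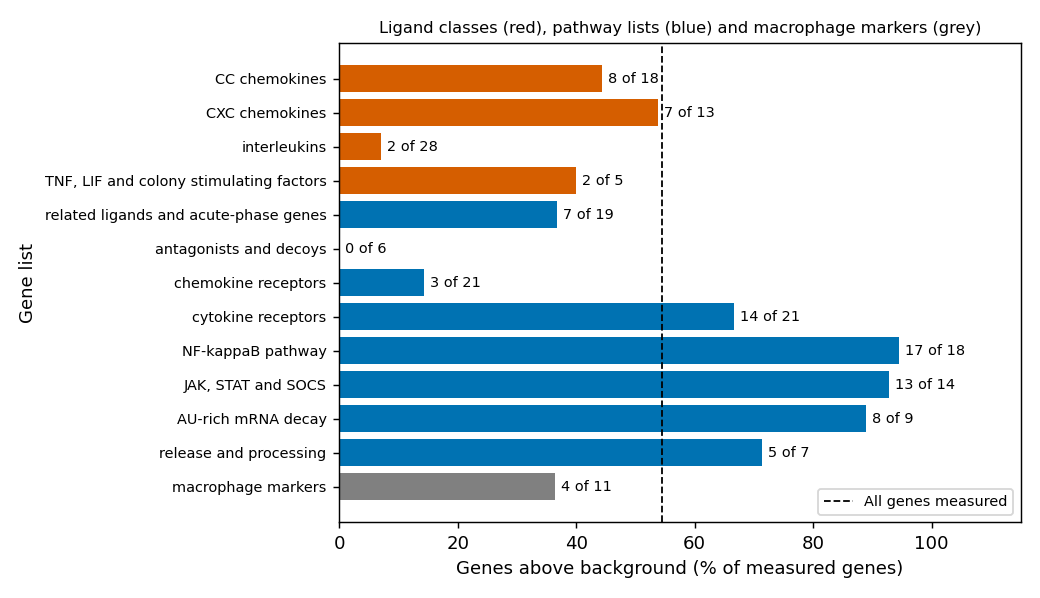
Percentage of measured genes above background (x axis) for the ligand classes (red), the pathway lists (blue) and the macrophage markers (grey), with the number above background of the number measured beside each bar. The dashed line is the share of all genes measured, 54.4%. CX3C, with 1 gene, is not drawn.

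The ligand genes above background had a wider spread between the 3 arrays than genes at large, and replicate 1 decided this. Their median SD was 0.075 on the log2 scale, ranging from 0.013 for Cxcl1 to 0.12 for Cxcl10, against 0.048 for all genes above background. With 0.1 as the limit, which was picked knowing the values, 6 of the 20 had a larger SD, namely Ccl6, Ccl7, Ccl9, Cx3cl1, Cxcl10 and Il17b, against 8.46% of all genes above background. Without replicate 1, the median SD of the same 20 genes was 0.039 against 0.038 for the same 9899 genes at large, so the difference in medians rested on that array, and without replicate 2 or 3 it was 0.072 against 0.043 and 0.078 against 0.036. The count over 0.1 was 3 of 20 without replicate 1, against 9.56% of the genes at large, 7 of 20 against 14.2% without replicate 2 and 8 of 20 against 8.08% without replicate 3. The arrays did not rank alike for these genes. Ccl7, Cx3cl1 and Cxcl10 were lowest in replicate 1 and highest in replicate 3, whereas Ccl6, Ccl9 and Il17b were highest in replicate 1 and lowest in replicate 3. Replicate 1 was the highest array for 11 of the 20 ligand genes and for 23.7% of all genes above background, and the lowest for 8 of the 20 and for 44.7% of all. Among genes not above background, it was the highest for 23 of 45 ligand genes and 38.8% of all, and the lowest for 10 of 45 and 27.4%. The lean to replicate 1 as the highest array was thus not confined to ligand genes above background.

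Macrophages also make Ccl6 and Ccl9, and the macrophage markers above background did not share 1 order of the arrays. Lyz2 was at 11.29, 11.15 and 11.13 in replicates 1, 2 and 3, highest in replicate 1 as these chemokines were. Csf1r ran the other way, at 8.64, 8.65 and 8.82, and Cd14 was nearly level at 8.83, 8.85 and 8.81, as was Fcgr1 at a mean of 7.98 with its lowest value, 7.95, in replicate 2. The summed intensity of the 11 macrophage markers was 3989 in replicate 1, 3733 in replicate 2 and 3739 in replicate 3, and without Lyz2 it was 1480, 1460 and 1498, so Lyz2 alone made replicate 1 the highest. The defining markers Adgre1, Cd68, Itgam and Ptprc were not above background, at means of 6.67, 6.56, 5.60 and 4.64, nor were Aif1, Mrc1 and Cd163. The part of macrophage RNA in the ligand levels was not tested.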

How the data were processed

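Per the methods, the authors background-corrected and normalized the mouse4302 arrays with RMA in affyPLM, and the intensities they deposited are on a linear scale. Which arrays were normalized together, and any later scaling, was not given in any source used, so the scale and centring of the values stay unknown. Log2 was taken of the intensities as deposited. Probe sets assigned to several genes (932) or none (9211) of the 45101 were left out, 6 of the former naming a ligand gene. The probe set with the highest mean stood for a gene. All 65 symbols matched the RefSeq genes of GRCm38.p6 through Entrez identifiers. Replicates were numbered as in the labels. All samples form 1 group, so no test was made, and the number of arrays limits the precision.

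The members and lists were chosen with earlier results of these data known. Every ligand gene above background was named. Tnf, Il1a, Il1b, Il6, Il10, Csf2, Csf3, Cxcl2, Cxcl10 and Ccl5 were to be given with values where not above background. Of these, Il6, Cxcl10 and Ccl5 were above it. Also named were ligand genes within 0.5 of the background level. Of each list, up to 4 genes of highest level and 4 not above background were named. Receptors of the named ligands and a few genes chosen after their values were seen went beyond this. The calls were tested on simulated data. The protein features planned for the ligands were not examined. The alternatives were other background levels (90th and 99th percentile, the highest probe set, and 67 probe sets for keratin-associated proteins and defensins), the median over probe sets, every probe set, omission of cross-hybridising (_x_at and _s_at) probe sets, centring, and leaving out each array. The software was numpy 2.4.6, pandas 2.3.3, matplotlib 3.10.9 and scipy 1.17.1 under Python 3.11.15.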

Additional observations from a re-analysis of the deposited data

How the results depend on the processing

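No paired analysis was possible because all 3 arrays belong to a single group. The count of 20 ligand genes above background was 15 with the 99th percentile as background, 24 with the 90th, 16 with keratin-associated protein and defensin genes, 16 with the median of probe sets, 15 where every probe set had to pass, 20 without cross-hybridising probe sets or on centring, and 20 to 23 on leaving out each array. It was 12 with the highest background probe set, and this limit and the demand on every probe set were both chosen after seeing the data. Lif, Il17b, Cxcl13 and Cxcl16 were lost with the 99th percentile, as was Ccl25, and Ccl4, Csf3, Cxcl9 and Il17a were gained with the 90th. Some counts of small lists moved by more than 1.5 times. With the 99th percentile, the counts were 1 for the interleukins, 1 for Tnf, Lif and the colony stimulating factors, 2 for lymphocyte and 0 for mast cell and neutrophil markers, and with keratin-associated protein and defensin genes 1, 1, 2 and 1. With the 90th percentile, 1 gene among antagonists and decoys was above background, as it was on leaving out replicate 1 (0 to 1 on leaving out each array). With the median of probe sets, the counts were 0 for Cx3cl1, 1 for Tnf, Lif and the colony stimulating factors, 5 for AU-rich mRNA decay and 1 for lymphocyte markers. Without cross-hybridising probe sets, 1 mast cell and neutrophil marker was above background. With the highest background probe set, the counts were 5 for CC chemokines, 4 for CXC chemokines, 1 for interleukins, 1 for Tnf, Lif and the colony stimulating factors, 1 for chemokine receptors, 1 for lymphocyte, 0 for endothelial and 0 for mast cell and neutrophil markers. Where every probe set had to pass, they were 5706 for all genes (31.4%), 0 for Cx3cl1, 4 for CXC chemokines and 1 for Tnf, Lif and the colony stimulating factors. The median SD of the ligand genes above background, 0.075, was 0.044 to 0.072 on leaving out each array where the genes were called anew from the remaining arrays. Of 33 levels of named ligand genes, 11 moved by more than 1.5-fold with the median of probe sets and 0 without cross-hybridising probe sets. The cause was not tested. For the 12 ligand genes within 0.5 of the background level, the low signal limits the call.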
